A study of Homo sapiens with 9 samples.

Results

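Glycolysis and the hypoxia response were followed through 37 genes, chosen by a list of symbols and found in the deposited tables among 58884 Ensembl gene identifiers. They comprised 8 genes of the hexose steps of glycolysis, 9 of the triose steps to lactate, 5 of the pyruvate dehydrogenase kinase and PFKFB families, 11 hypoxia-inducible effectors, and 4 subunits or prolyl hydroxylases of the hypoxia-inducible factors (HIF). The RNA was that of the immortalised human kidney line HK-2, derived from proximal tubule epithelium and grown in serum-free keratinocyte medium, in 9 libraries of 3 groups. In the lactoferrin plus PM2.5 group (n = 3), cells had 6 h of lactoferrin, an iron-binding milk protein, and then 18 h of PM2.5, the fine fraction of airborne particulate matter. The series text gives 40 mg/ml of lactoferrin and 1 mg/ml of PM2.5 for that sequence. In the PM2.5 group (n = 3), cells had 24 h of PM2.5, and the labels give no dose for it. Control cells (n = 3) are labelled untreated, while the treatment protocol speaks of a control vehicle. No library had lactoferrin alone, so the exposed groups differed both in lactoferrin and in hours of PM2.5, which cannot be told apart. Whether they also differed in the dose of PM2.5 is not known. The labels do not say whether replicates were separate cultures, so p-values measure the spread between these libraries, which may be technical.

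Glycolysis splits glucose into pyruvate, and lactate dehydrogenase can turn that pyruvate into lactate so that the pathway runs on without oxygen. When oxygen is short, the prolyl hydroxylases of the EGLN family stop marking HIF alpha subunits for destruction. The stabilised subunits then pair with ARNT and switch on glycolytic enzymes, blood vessel signals and mitophagy receptors through a short DNA core. Much of this control acts on the stability of the HIF protein, which RNA does not show. Proximal tubule cells in the kidney live mainly on oxidative metabolism, while cultured lines such as HK-2 are known to be strongly glycolytic.

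The core is ACGTG or GCGTG on either strand, and GCGTG is also the core bound by the aryl hydrocarbon receptor. It was searched in RefSeq promoter windows around start sites (GRCh38.p14), which matched 33 of the 37 genes. VEGFA, NDRG1, BNIP3L and PFKFB2 were not matched. Either core was present in 68.4% of the 57 windows of these genes, against 61.2% of the 13954 windows of all genes tested and 48.4% of the 35116 windows in the table. The cores differed: ACGTG was in 40.4% of these windows against 25.9% of those of all genes tested, and GCGTG in 42.1% against 48.8%. Counted by gene, 30 of 33 (90.9%) had either core in at least 1 window, against 70.8% of 9624 tested genes. This count favours genes with many windows, and these genes had more per gene: 57 for 33 genes, against 13954 for 9624. HK1 and PFKM had 7 each. A CACGTG counts as 2 overlapping matches, 1 on each strand. The 4 windows printed here belong to HK2 and CA12, which were higher in both exposed groups than in control, and to LDHA and BNIP3, which were lower in both. Each is the window of its gene with the most matches, and capitals mark the matches. These 4 genes were picked as examples. There were 6 matches each in HK2, LDHA and BNIP3, with both cores present, and 2 in CA12, both of them GCGTG. Whether matches go with the direction of change was not tested. In the windows of EGLN3, P4HA2 and PGAM1 these letters were not found.
HK2, chr2:74834920-74835219, plus strand: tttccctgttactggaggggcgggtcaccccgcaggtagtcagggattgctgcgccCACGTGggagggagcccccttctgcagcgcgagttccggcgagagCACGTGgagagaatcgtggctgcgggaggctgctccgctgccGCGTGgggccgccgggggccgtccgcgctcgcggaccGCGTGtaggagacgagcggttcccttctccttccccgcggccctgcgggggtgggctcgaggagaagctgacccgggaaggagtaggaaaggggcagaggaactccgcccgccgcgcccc
CA12, chr15:63381797-63382096, minus strand: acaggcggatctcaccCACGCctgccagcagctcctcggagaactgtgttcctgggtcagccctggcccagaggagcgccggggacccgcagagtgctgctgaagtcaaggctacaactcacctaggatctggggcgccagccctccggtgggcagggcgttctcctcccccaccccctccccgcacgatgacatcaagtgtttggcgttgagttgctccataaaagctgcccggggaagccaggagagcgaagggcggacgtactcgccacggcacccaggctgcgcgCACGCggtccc
LDHA, chr11:18394313-18394612, plus strand: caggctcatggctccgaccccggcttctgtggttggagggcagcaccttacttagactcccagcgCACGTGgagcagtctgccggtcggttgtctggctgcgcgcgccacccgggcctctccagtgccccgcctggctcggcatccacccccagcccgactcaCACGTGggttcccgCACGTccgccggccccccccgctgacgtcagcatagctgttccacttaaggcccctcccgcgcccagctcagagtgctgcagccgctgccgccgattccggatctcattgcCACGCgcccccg
BNIP3, chr10:131981874-131982173, minus strand: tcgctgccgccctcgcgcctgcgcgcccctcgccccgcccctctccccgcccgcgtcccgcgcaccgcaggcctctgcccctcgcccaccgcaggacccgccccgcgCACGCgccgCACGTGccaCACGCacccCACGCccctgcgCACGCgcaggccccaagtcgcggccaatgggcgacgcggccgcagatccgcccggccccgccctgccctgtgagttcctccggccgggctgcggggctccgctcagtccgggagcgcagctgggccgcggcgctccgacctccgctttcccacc

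Levels are given as deposited FPKM, fragments scaled to gene length and library size, which allow genes to be compared per length of annotated exons. Fold changes are differences of log2(scaled FPKM + 0.5) from limma, with their standard error. A gene was called when its Benjamini-Hochberg adjusted p over all 14454 tested genes was under 0.05. Of the 37 genes, 36 passed the filter on low values and were tested. ALDOC did not pass, with at most 0.195 FPKM. The FPKM steps correspond to 15314472 to 18816295 reads or fragments per library within genes. The first principal component (54.4% of the variance) parted control from exposed libraries. The second (13.5%) set lactoferrin plus PM2.5 replicate 1 apart and the third (8.86%) set control replicate 3 apart. Of 17 proximal tubule markers, 14 stayed below 1 FPKM in every library, among them LRP2 and CUBN, while PAX8 had 50.4 to 85.7 FPKM. The summed level of 6 epithelial markers was 286 to 373 FPKM with lactoferrin plus PM2.5, 281 to 293 FPKM with PM2.5 and 336 to 368 FPKM in control. Of these, mean KRT18 was higher with PM2.5 than in control (58.9 against 49.9 FPKM), while KRT8, KRT19, KRT7, EPCAM and CDH1 had lower means, and CDH1 was below 1 FPKM in every library. All immune, endothelial and distal tubule markers checked were below 1 FPKM. The summed level of 5 fibroblast markers was 50.7 to 55.0 FPKM with lactoferrin plus PM2.5, 66.2 to 68.0 FPKM with PM2.5 and 48.0 to 54.3 FPKM in control, most of it LUM. COL1A1 went the other way, with means of 1.14 FPKM with lactoferrin plus PM2.5, 1.42 FPKM with PM2.5 and 6.77 FPKM in control, and COL1A2 and PDGFRB were below 1 FPKM in every library. The part of these markers in the results was not tested. In bulk RNA, fewer cells that express a gene and less RNA per cell cannot be told apart.

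Exposure to PM2.5 went with both increases and decreases among these genes. Against control, 9 of the 36 tested were higher and 10 lower, which is 25.0% and 27.8%, beside 18.5% and 16.5% of all tested genes. The glycolytic genes that rose were HK2, PFKM, ENO2 and PFKFB2, and those that fell were PFKL, PGAM1, LDHA, PFKFB3 and PFKFB4. Among hypoxia-inducible effectors, CA12, VEGFA, ADM, NDRG1 and P4HA2 rose, while BNIP3, BNIP3L, P4HA1 and KDM3A fell. The median log2 fold change was -0.13 over the 36 genes and 0.00 over all tested genes. With no scaling factor the split was 11 higher and 7 lower.

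Lactoferrin plus PM2.5 against control gave 10 higher and 12 lower, which is 27.8% and 33.3% of the 36 genes, beside 19.6% and 18.5% of all tested genes. This comparison and the previous one share the control libraries. With no scaling factor the split was 10 higher and 8 lower. Lactoferrin plus PM2.5 against PM2.5 gave 0 higher and 0 lower with limma, beside 0.0208% and 0.0277% of all tested genes. There, 4 of the 36 had an unadjusted p under 0.05 (11.1%), a share near that of all tested genes, 1765 of 14454 (12.2%). For the 36 genes, the smallest adjusted p with limma was 0.306, and limma-voom on rebuilt reads also called 0.

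**Figure D1:**
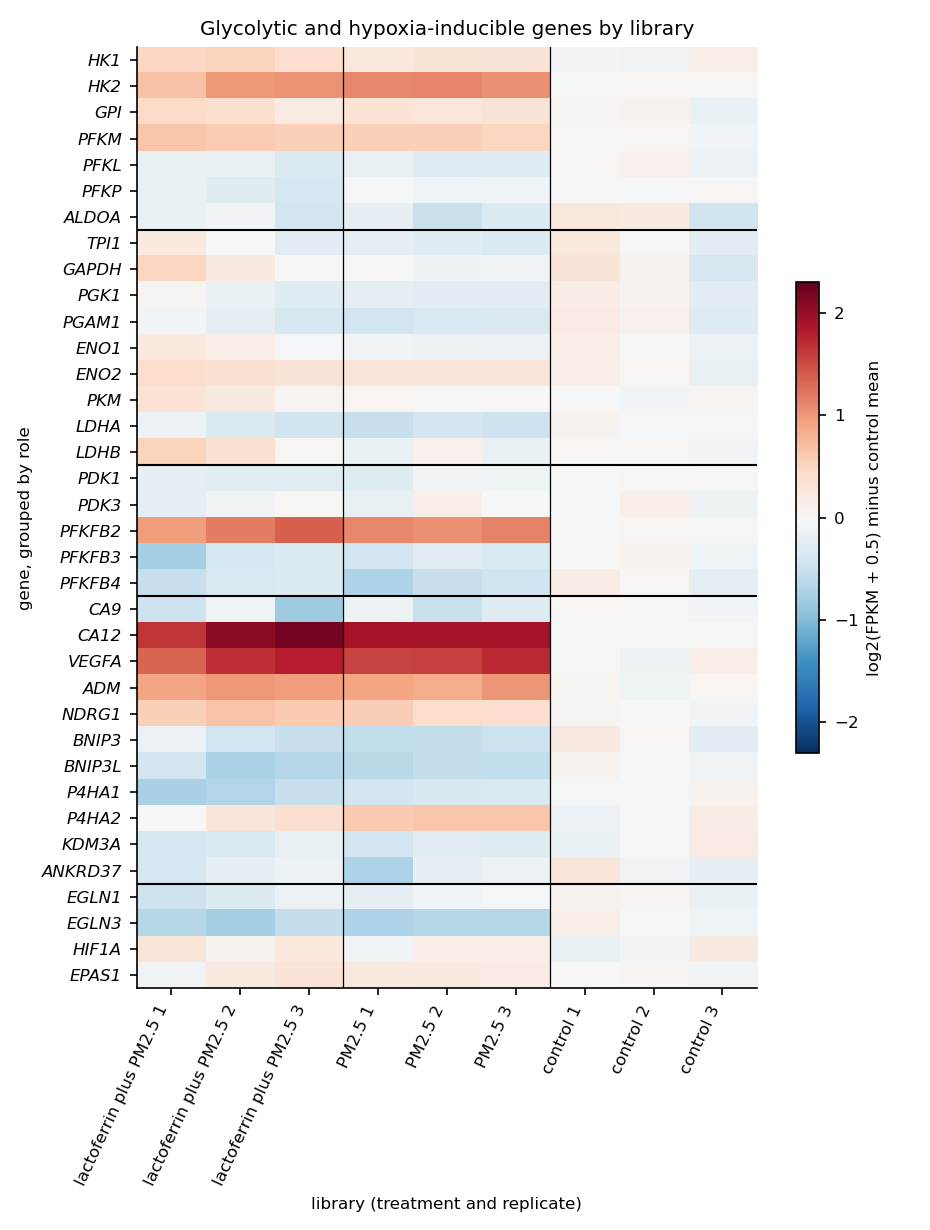
Level of each tested gene in each library as log2(FPKM + 0.5), without scaling, minus the mean of the 3 control libraries, with genes in rows grouped by role and libraries in columns (red higher, blue lower). CA12, VEGFA, HK2, PFKFB2 and ADM are red in all 6 exposed libraries, and BNIP3L, EGLN3 and P4HA1 are blue in all 6.

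The hexose steps trap glucose in the cell and commit it to glycolysis. In lactoferrin plus PM2.5 cells HK1, HK2, GPI and PFKM of 7 tested genes were higher, and PFKL and PFKP lower (57.1% and 28.6%, beside 19.6% and 18.5% of all tested genes). In PM2.5 cells HK2 and PFKM were higher and PFKL lower (28.6% and 14.3%, beside 18.5% and 16.5%), and the other 4 were not called.

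HK2, the inducible mitochondria-bound hexokinase, had 18.2, 22.9 and 23.3 FPKM with lactoferrin plus PM2.5, 24.7, 24.9 and 23.7 FPKM with PM2.5, and 10.8, 11.3 and 11.4 FPKM in control. All 6 exposed libraries lay above all control libraries, and the lactoferrin plus PM2.5 libraries lay below those of PM2.5. The log2 fold change was 0.86 ± 0.10 for lactoferrin plus PM2.5 (adjusted p = 0.000174) and 1.05 ± 0.10 for PM2.5 (adjusted p = 6.45e-05). HK1, the widely expressed hexokinase, had 55.1, 56.6 and 52.1 FPKM with lactoferrin plus PM2.5, 46.9, 49.3 and 48.8 FPKM with PM2.5, and 38.1, 37.5 and 43.4 FPKM in control. The 3 groups did not overlap. Only the lactoferrin plus PM2.5 difference from control passed, at 0.41 ± 0.10 (adjusted p = 0.00915), beside 0.23 ± 0.10 for PM2.5 (adjusted p = 0.0882). Without control replicate 3 the PM2.5 value was 0.32 and passed (adjusted p = 0.0154). The difference between the exposed groups, 0.17 ± 0.10, did not pass (adjusted p = 0.455).

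GPI, which turns glucose phosphate into fructose phosphate, had 35.4, 33.7 and 29.8 FPKM with lactoferrin plus PM2.5, 32.4, 31.2 and 32.0 FPKM with PM2.5, and 27.3, 27.6 and 23.5 FPKM in control. Every exposed library was above every control library. Its difference from control was 0.28 ± 0.09 with lactoferrin plus PM2.5 (adjusted p = 0.0349) and 0.23 ± 0.09 with PM2.5 (adjusted p = 0.07). Leaving out any single library other than lactoferrin plus PM2.5 replicate 3 ended that call (adjusted p 0.0511 to 0.102), and leaving out lactoferrin plus PM2.5 replicate 1 or 3 gave a call for PM2.5 (0.0318 and 0.0346).

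The 3 phosphofructokinase genes, which encode the committing step, went different ways. PFKM, the muscle form, had 19.7, 18.9 and 18.3 FPKM with lactoferrin plus PM2.5, 18.2, 18.4 and 17.6 FPKM with PM2.5, and 12.6, 12.8 and 11.8 FPKM in control. The exposed libraries were all above control, by 0.54 ± 0.07 with lactoferrin plus PM2.5 (adjusted p = 0.000407) and 0.48 ± 0.07 with PM2.5 (adjusted p = 0.00105) on the log2 scale. PFKL, the liver form, had 9.21, 9.39 and 8.23 FPKM with lactoferrin plus PM2.5, 9.25, 8.37 and 8.51 FPKM with PM2.5, and 10.8, 11.2 and 9.4 FPKM in control. It was lower in both exposed groups, with log2 changes of -0.26 ± 0.09 for lactoferrin plus PM2.5 (adjusted p = 0.0423) and -0.30 ± 0.09 for PM2.5 (adjusted p = 0.0281). The PM2.5 call for PFKL ended without control replicate 1 or 2 or PM2.5 replicate 2 or 3 (adjusted p 0.075 to 0.0989). The lactoferrin plus PM2.5 call ended without any single library other than control replicate 3 or lactoferrin plus PM2.5 replicate 1 (0.0535 to 0.135). With a lowess trend on exon length removed, neither call held: the PFKL value was -0.13 for lactoferrin plus PM2.5 (adjusted p = 0.404) and -0.25 for PM2.5 (adjusted p = 0.114). PFKP, the platelet form and the most abundant of the 3 here, had 54.7, 50.0 and 45.8 FPKM with lactoferrin plus PM2.5, 59.4, 56.6 and 57.6 FPKM with PM2.5, and 60.0, 60.1 and 62.1 FPKM in control. The groups did not overlap. The difference from control was -0.33 ± 0.10 with lactoferrin plus PM2.5 (adjusted p = 0.0227) and -0.12 ± 0.10 with PM2.5 (adjusted p = 0.354), and that between the exposed groups was -0.21 ± 0.10 (adjusted p = 0.413). The PFKP call ended without control replicate 3 or lactoferrin plus PM2.5 replicate 2 or 3 (adjusted p 0.0569 to 0.0698).

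ALDOA, the main aldolase of most tissues, was listed at only 2.06 to 2.78 FPKM with lactoferrin plus PM2.5, 1.91 to 2.51 FPKM with PM2.5 and 2.01 to 3.54 FPKM in control, while TPI1, the next enzyme of the pathway, had 275 to 402 FPKM. In the annotation used, 53.5% of its exonic bases also belong to other genes, 42.3% on its own strand. No source used here says how such reads were counted, so its level is uncertain. Its groups overlapped, and PM2.5 differed from control by -0.38 ± 0.18 (adjusted p = 0.132). Without control replicate 3 that value was -0.59 and passed (adjusted p = 0.0174), and the lactoferrin plus PM2.5 value was -0.46 and passed (adjusted p = 0.0404).

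The triose steps yield ATP and end in pyruvate and lactate, and apart from ENO2 and LDHB their genes were abundant. In lactoferrin plus PM2.5 cells ENO2 was higher, LDHA lower and 7 of 9 were not called (11.1% in each direction, beside 19.6% and 18.5% of all tested genes). In PM2.5 cells ENO2 was higher, PGAM1 and LDHA lower and 6 not called, and these shares of 11.1% and 22.2% stand beside 18.5% and 16.5% of all tested genes. Between the exposed groups all 9 fold changes were positive (median 0.19, beside -0.003 over all tested genes), and none was called. The mean log2 level of the 9 genes was highest in lactoferrin plus PM2.5 replicate 1. In replicate 3 of that group it lay within the range of the PM2.5 libraries.

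LDHA, the lactate dehydrogenase subunit that favours lactate formation, had 289, 253 and 232 FPKM with lactoferrin plus PM2.5, 222, 235 and 229 FPKM with PM2.5, and 336, 314 and 308 FPKM in control. All exposed libraries were below all control libraries. Its log2 fold change was -0.36 ± 0.11 for lactoferrin plus PM2.5 (adjusted p = 0.024) and -0.53 ± 0.11 for PM2.5 (adjusted p = 0.00476). The lactoferrin plus PM2.5 call ended without control replicate 1 or 2 or lactoferrin plus PM2.5 replicate 2 or 3 (adjusted p 0.0529 to 0.0827). PGAM1, a phosphoglycerate mutase, had 492, 440 and 398 FPKM with lactoferrin plus PM2.5, 377, 400 and 404 FPKM with PM2.5, and 584, 548 and 418 FPKM in control. Lactoferrin plus PM2.5 libraries overlapped control (-0.26 ± 0.13, adjusted p = 0.14), while those of PM2.5 were below all control libraries (-0.43 ± 0.13, adjusted p = 0.0303). The PM2.5 call for PGAM1 ended on leaving out any single library other than control replicate 3 or lactoferrin plus PM2.5 replicate 1 or 3 (adjusted p 0.0523 to 0.102). Without control replicate 3 the lactoferrin plus PM2.5 value was -0.38 and passed (adjusted p = 0.0414). ENO2, the enolase best known from neurons, had 34.1, 33.0 and 31.8 FPKM with lactoferrin plus PM2.5, 31.1, 31.5 and 31.4 FPKM with PM2.5, and 28.1, 26.5 and 22.8 FPKM in control. The exposed libraries were above control, by 0.30 ± 0.08 with lactoferrin plus PM2.5 (adjusted p = 0.0129) and 0.23 ± 0.08 with PM2.5 (adjusted p = 0.0421). The PM2.5 call for ENO2 ended without control replicate 2 or 3, any PM2.5 library, or lactoferrin plus PM2.5 replicate 2 (adjusted p 0.0684 to 0.129).

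GAPDH, the dehydrogenase often used as a reference transcript, had 1890, 1563 and 1333 FPKM with lactoferrin plus PM2.5, 1354, 1243 and 1282 FPKM with PM2.5, and 1647, 1422 and 1045 FPKM in control. Its control libraries spanned those of PM2.5, and the log2 difference of PM2.5 from control was -0.11 ± 0.18. The annotation holds 62 pseudogenes named after it, at 2.06 FPKM or less, so reads of near-identical copies could be split. The same limit holds for genes called above or below, such as BNIP3 with 39 (1.86 FPKM or less), PGAM1 with 13 (0.454 FPKM or less) and LDHA with 6 (0.842 FPKM or less). TPI1, ENO1, PKM and PGK1 (triose phosphate isomerase, the ubiquitous enolase, pyruvate kinase and phosphoglycerate kinase) had 152 to 663 FPKM with lactoferrin plus PM2.5, 155 to 536 FPKM with PM2.5 and 155 to 618 FPKM in control. Their fold changes for PM2.5 were -0.31, -0.15, -0.04 and -0.30, with adjusted p of 0.131, 0.316, 0.781 and 0.0909. For lactoferrin plus PM2.5 they were -0.05, 0.06, 0.14 and -0.17, with adjusted p of 0.815, 0.72, 0.342 and 0.299. For PM2.5, PGK1 passed without control replicate 3 (-0.41, adjusted p = 0.0379) or without lactoferrin plus PM2.5 replicate 1 (adjusted p = 0.04). TPI1 passed for PM2.5 without control replicate 3 and lactoferrin plus PM2.5 replicate 1 together (-0.42, adjusted p = 0.0214). Without those libraries PGK1 passed for PM2.5 (-0.41, adjusted p = 0.00472) and for lactoferrin plus PM2.5 (-0.39, adjusted p = 0.00906). With a lowess trend on exon length removed, TPI1 passed for PM2.5 (-0.34, adjusted p = 0.0375). LDHB, the subunit that favours pyruvate formation, had 21.7, 19.2 and 15.4 FPKM with lactoferrin plus PM2.5, 13.5, 16.1 and 13.5 FPKM with PM2.5, and 15.5, 15.2 and 14.4 FPKM in control. Its groups overlapped. Against control it was 0.25 ± 0.13 with lactoferrin plus PM2.5 (adjusted p = 0.162) and -0.12 ± 0.13 with PM2.5 (adjusted p = 0.514), and without lactoferrin plus PM2.5 replicate 3 the first of these was 0.39 and passed (adjusted p = 0.0196). In LDHB, 33.4% of the exonic bases also belong to another gene on the same strand.

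Several libraries differed along gene length in a way that moved with these genes. The median log2 deviation of genes with exons of up to 1781 bases minus that of genes with 7590 bases or more was 0.27, 0.10 and -0.06 in lactoferrin plus PM2.5 libraries 1 to 3, 0.05, -0.10 and -0.09 in PM2.5 libraries, and 0.05, -0.05 and -0.23 in control libraries. The mean deviation of the 9 triose genes was 0.27, 0.07 and -0.13 in lactoferrin plus PM2.5 libraries, -0.10, -0.12 and -0.18 in PM2.5 libraries, and 0.16, 0.06 and -0.04 in control libraries. With the length trend removed, LDHA kept its call in both comparisons, PGAM1 was called in both, and ENO2 lost its PM2.5 call (adjusted p = 0.0558).

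**Figure D2:**
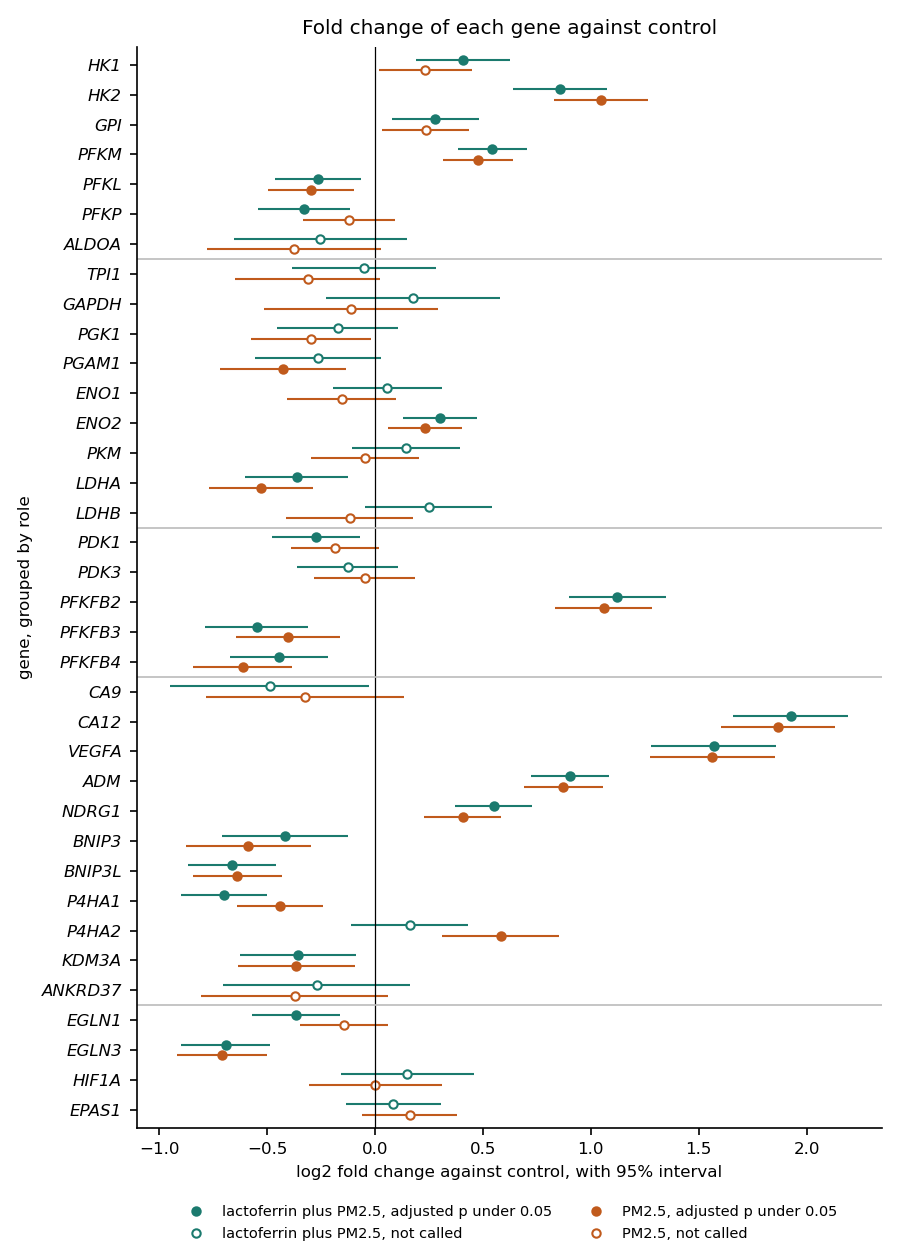
Log2 fold change against control with its 95% interval for each tested gene, in rows grouped by role, for lactoferrin plus PM2.5 (green) and PM2.5 (orange), with filled points where the adjusted p is under 0.05. CA12, VEGFA, PFKFB2, HK2 and ADM lie farthest to the right in both comparisons, and EGLN3, BNIP3L, PFKFB4 and P4HA1 are among the farthest to the left.

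PFKFB enzymes make and break the fructose bisphosphate that activates phosphofructokinase, and pyruvate dehydrogenase kinases keep pyruvate out of mitochondria. Both exposed groups had more PFKFB2 and less PFKFB3 and PFKFB4 than control. Of the 5 genes of these families, 1 was higher and 3 lower with lactoferrin plus PM2.5. That is 20.0% and 60.0%, beside 19.6% and 18.5% of all tested genes. With PM2.5, 1 was higher and 2 lower (20.0% and 40.0%, beside 18.5% and 16.5%). PFKFB2, the heart form, had 3.67, 4.31 and 5.02 FPKM with lactoferrin plus PM2.5, 4.12, 3.93 and 4.21 FPKM with PM2.5, and 1.64, 1.69 and 1.59 FPKM in control. All exposed libraries were above control, by 1.12 ± 0.10 with lactoferrin plus PM2.5 (adjusted p = 3.72e-05) and 1.06 ± 0.10 with PM2.5 (adjusted p = 6.71e-05). PFKFB3, the inducible form with high kinase activity, had 23.2, 30.2 and 31.7 FPKM with lactoferrin plus PM2.5, 29.4, 33.1 and 31.0 FPKM with PM2.5, and 40.2, 42.2 and 37.4 FPKM in control. It lay below control in every exposed library, with log2 changes of -0.55 ± 0.11 for lactoferrin plus PM2.5 (adjusted p = 0.0034) and -0.40 ± 0.11 for PM2.5 (adjusted p = 0.0167). The PM2.5 call for PFKFB3 ended without control replicate 2 or PM2.5 replicate 1 or 3 (adjusted p 0.0529 to 0.0601). PFKFB4, a further hypoxia-inducible form, had 3.82, 4.41 and 4.49 FPKM with lactoferrin plus PM2.5, 3.31, 3.83 and 4.02 FPKM with PM2.5, and 6.51, 5.95 and 4.86 FPKM in control. Its exposed libraries were again all below control, with log2 changes of -0.45 ± 0.10 for lactoferrin plus PM2.5 (adjusted p = 0.00745) and -0.61 ± 0.10 for PM2.5 (adjusted p = 0.00169).

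PDK1, the hypoxia-inducible pyruvate dehydrogenase kinase, had 1.82, 1.73 and 1.72 FPKM with lactoferrin plus PM2.5, 1.68, 2.05 and 1.97 FPKM with PM2.5, and 2.13, 2.19 and 2.13 FPKM in control. Neither exposed group overlapped control. The lactoferrin plus PM2.5 difference was -0.27 ± 0.09 (adjusted p = 0.0396) and that of PM2.5 -0.19 ± 0.09 (adjusted p = 0.138). Leaving out any library other than PM2.5 replicate 1 or lactoferrin plus PM2.5 replicate 1 ended the PDK1 call (adjusted p 0.0549 to 0.109), and removing the length trend left a log2 change of -0.01. PDK3, a related kinase, had 2.47 to 3.04 FPKM with lactoferrin plus PM2.5, 2.58 to 3.28 FPKM with PM2.5 and 2.69 to 3.29 FPKM in control, and was not called.

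The hypoxia-inducible effectors held both the largest increases and many of the decreases. Of the 11, 4 were higher and 4 lower with lactoferrin plus PM2.5 (36.4% each, beside 19.6% and 18.5% of all tested genes). With PM2.5, 5 were higher and 4 lower (45.5% and 36.4%, beside 18.5% and 16.5%).

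CA12, a membrane carbonic anhydrase that handles acid outside the cell, had 12.3, 16.6 and 18.3 FPKM with lactoferrin plus PM2.5, 14.9, 15.0 and 14.8 FPKM with PM2.5, and 3.63, 3.56 and 3.55 FPKM in control. The mean FPKM was 4.39 times control with lactoferrin plus PM2.5 and 4.16 times control with PM2.5. All exposed libraries were above control, by 1.93 ± 0.12 with lactoferrin plus PM2.5 (adjusted p = 4.49e-06) and 1.87 ± 0.12 with PM2.5 (adjusted p = 7.41e-06) on the log2 scale. Its relative CA9, a classical marker of hypoxic cells, was near the filter, with 0.330, 0.580 and 0.158 FPKM with lactoferrin plus PM2.5, 0.568, 0.312 and 0.459 FPKM with PM2.5, and 0.690, 0.676 and 0.606 FPKM in control. It rested on 4 to 19 reads a library, shares 38.5% of its exonic bases with a gene on the other strand, and did not pass (adjusted p = 0.0877 for lactoferrin plus PM2.5 and 0.246 for PM2.5). Without lactoferrin plus PM2.5 replicate 2 its value for that group was -0.67 and passed (adjusted p = 0.0366), as it did with the length trend removed (-0.57, adjusted p = 0.0413). CA9 reached 0.5 FPKM in at least 3 libraries only by counting the control libraries, where it was highest. Its tests against control were thus not independent of the filter, and no conclusion is drawn from them.

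VEGFA, the main growth factor of blood vessels, had 8.01, 10.4 and 11.3 FPKM with lactoferrin plus PM2.5, 9.35, 9.49 and 10.5 FPKM with PM2.5, and 2.78, 2.62 and 3.23 FPKM in control. No exposed library overlapped control, and the log2 fold change was 1.57 ± 0.13 for lactoferrin plus PM2.5 (adjusted p = 2.49e-05) and 1.56 ± 0.13 for PM2.5 (adjusted p = 3.31e-05). ADM, a vasodilator peptide, had 17.7, 18.9 and 18.4 FPKM with lactoferrin plus PM2.5, 17.6, 17.0 and 19.1 FPKM with PM2.5, and 9.63, 8.57 and 9.47 FPKM in control. Every exposed library was higher than control, by 0.90 ± 0.08 with lactoferrin plus PM2.5 (adjusted p = 4.03e-05) and 0.87 ± 0.08 with PM2.5 (adjusted p = 6.3e-05). NDRG1, a stress-responsive gene also induced by iron loss, had 18.4, 20.0 and 19.1 FPKM with lactoferrin plus PM2.5, 18.7, 16.7 and 16.5 FPKM with PM2.5, and 13.0, 12.5 and 11.9 FPKM in control. Again no exposed library reached down to control, and the differences were 0.55 ± 0.08 for lactoferrin plus PM2.5 (adjusted p = 0.000683) and 0.41 ± 0.08 for PM2.5 (adjusted p = 0.0041).

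BNIP3 and BNIP3L encode receptors that direct mitochondria to autophagy. BNIP3 had 45.6, 36.4 and 34.5 FPKM with lactoferrin plus PM2.5, 33.5, 33.7 and 35.5 FPKM with PM2.5, and 57.7, 51.5 and 41.6 FPKM in control. Lactoferrin plus PM2.5 was lower (-0.42 ± 0.13, adjusted p = 0.03) with replicate 1 inside the control range, and PM2.5 libraries were all below control (-0.59 ± 0.13, adjusted p = 0.0072). The lactoferrin plus PM2.5 call ended without control replicate 1 or 2, PM2.5 replicate 1, or lactoferrin plus PM2.5 replicate 2 or 3 (adjusted p 0.0522 to 0.104). BNIP3L had 22.1, 18.0 and 18.9 FPKM with lactoferrin plus PM2.5, 19.2, 20.5 and 20.3 FPKM with PM2.5, and 32.2, 30.2 and 28.5 FPKM in control. All exposed libraries were below control, with log2 changes of -0.66 ± 0.09 for lactoferrin plus PM2.5 (adjusted p = 0.000513) and -0.64 ± 0.09 for PM2.5 (adjusted p = 0.000799).

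P4HA1 and P4HA2 encode alternative catalytic subunits of collagen prolyl hydroxylase, and with PM2.5 P4HA1 was lower and P4HA2 higher than in control. P4HA1 had 54.5, 57.6 and 63.8 FPKM with lactoferrin plus PM2.5, 67.4, 70.9 and 72.3 FPKM with PM2.5, and 89.8, 89.5 and 97.3 FPKM in control. The 3 groups did not overlap, and the log2 difference from control was -0.70 ± 0.09 with lactoferrin plus PM2.5 (adjusted p = 0.000325) and -0.44 ± 0.09 with PM2.5 (adjusted p = 0.00473). P4HA2 had 9.07, 11.2 and 11.9 FPKM with lactoferrin plus PM2.5, 14.2, 14.5 and 14.5 FPKM with PM2.5, and 8.27, 8.85 and 10.4 FPKM in control. Lactoferrin plus PM2.5 overlapped control (0.16 ± 0.12, adjusted p = 0.323), while PM2.5 stood above both other groups (0.58 ± 0.12 against control, adjusted p = 0.00545). Without control replicate 3 and lactoferrin plus PM2.5 replicate 1 together, the P4HA2 value for lactoferrin plus PM2.5 was 0.37 and passed (adjusted p = 0.0035), and it passed at 0.28 with the length trend removed (adjusted p = 0.035).

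KDM3A, a histone lysine demethylase, had 5.13, 5.29 and 6.10 FPKM with lactoferrin plus PM2.5, 4.96, 5.80 and 5.65 FPKM with PM2.5, and 6.22, 6.71 and 7.95 FPKM in control. Exposed libraries lay just below control, with a log2 change of -0.36 ± 0.12 in both comparisons (adjusted p = 0.0411 for lactoferrin plus PM2.5 and 0.0407 for PM2.5). Its PM2.5 call ended without control replicate 2 or 3, any PM2.5 library, or lactoferrin plus PM2.5 replicate 2 (adjusted p 0.0564 to 0.115). Its lactoferrin plus PM2.5 call ended without control replicate 2 or 3, PM2.5 replicate 2 or 3, or lactoferrin plus PM2.5 replicate 1 or 2 (0.0578 to 0.117), and was -0.11 with the length trend removed. ANKRD37, an ankyrin repeat gene used in hypoxia signatures, had 0.448 to 0.649 FPKM with lactoferrin plus PM2.5, 0.262 to 0.630 FPKM with PM2.5 and 0.585 to 1.01 FPKM in control, and was not called. It rested on 13 to 40 reads a library, and 35.2% of its exonic bases overlap a gene on the other strand.

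**Figure D3:**
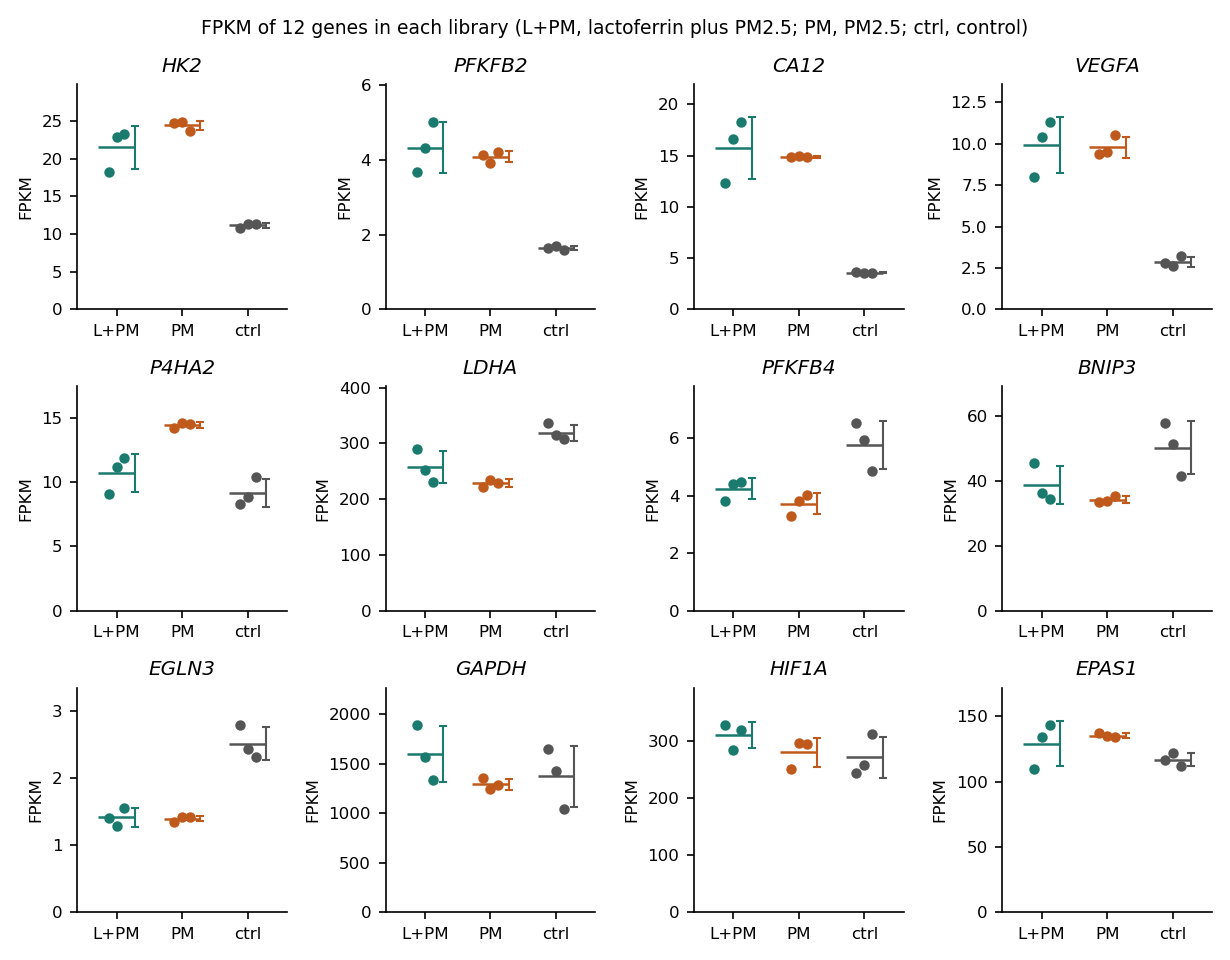
FPKM of 12 genes in each library, with a horizontal line at the mean and a bar for the SD of each group of 3 (L+PM, lactoferrin plus PM2.5; PM, PM2.5; ctrl, control). HK2, PFKFB2, CA12 and VEGFA are higher in all exposed libraries than in control, EGLN3, LDHA and PFKFB4 are lower, and HIF1A overlaps across groups.

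Among the HIF subunits and prolyl hydroxylases, EGLN3 was lower than control in both exposed groups, EGLN1 was lower with lactoferrin plus PM2.5, and HIF1A and EPAS1 were not called. With lactoferrin plus PM2.5 that is 0% higher and 50.0% lower of the 4, beside 19.6% and 18.5% of all tested genes. With PM2.5 it is 0% and 25.0%, beside 18.5% and 16.5%. HIF1A had 329, 285 and 321 FPKM with lactoferrin plus PM2.5, 251, 297 and 295 FPKM with PM2.5, and 244, 258 and 313 FPKM in control. Its groups overlapped, and the log2 difference of PM2.5 from control was 0.00 ± 0.14, with a 95% interval of -0.31 to 0.31. EPAS1, which encodes the HIF-2 alpha subunit, had 110, 134 and 143 FPKM with lactoferrin plus PM2.5, 137, 135 and 134 FPKM with PM2.5, and 116, 122 and 112 FPKM in control, and was not called (0.16 ± 0.10 for PM2.5, adjusted p = 0.234). EGLN3, a prolyl hydroxylase that is itself a HIF target, had 1.42, 1.28 and 1.56 FPKM with lactoferrin plus PM2.5, 1.35, 1.42 and 1.42 FPKM with PM2.5, and 2.80, 2.44 and 2.32 FPKM in control. It was lower in all exposed libraries, with log2 changes of -0.69 ± 0.09 for lactoferrin plus PM2.5 (adjusted p = 0.000439) and -0.71 ± 0.09 for PM2.5 (adjusted p = 0.000479). EGLN1, the main oxygen-sensing prolyl hydroxylase, had 13.0, 14.6 and 16.6 FPKM with lactoferrin plus PM2.5, 15.9, 17.5 and 18.0 FPKM with PM2.5, and 19.4, 19.3 and 16.5 FPKM in control. Lactoferrin plus PM2.5 differed from control by -0.37 ± 0.09 (adjusted p = 0.0113), with 1 library inside the control range, and the PM2.5 value was -0.14 ± 0.09 (adjusted p = 0.246).

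The groups of lactoferrin plus PM2.5 and of PM2.5 were compared with each other, with lactoferrin and hours of PM2.5 both differing between them. The dose of PM2.5 may have differed as well, since none is given for the PM2.5 group. Of the 36 genes, 25 had positive and 11 negative fold changes, and none was called. The median was 0.06, beside -0.003 over all tested genes. Among the 25 were all 9 triose genes, whose levels moved with the length differences described above. P4HA2 came closest, at -0.42 ± 0.12 (95% interval -0.69 to -0.15, unadjusted p = 0.00646, adjusted p = 0.306), and was lower in all 3 pretreated libraries than in any PM2.5 library. P4HA1 was likewise lower in all 3 (-0.26 ± 0.09, adjusted p = 0.363). Such separation was not particular to these genes. HK2 and PFKP were also lower in all 3, and HK1, ENO1, ENO2 and PKM were higher in all 3. The share of all tested genes that separate in this way was not counted. EGLN1 (-0.22 ± 0.09, adjusted p = 0.397) and LDHB (0.37 ± 0.13, adjusted p = 0.376) overlapped between the groups. For the genes that changed most against control the difference was 0.06 for CA12 (95% interval -0.21 to 0.32), 0.01 for VEGFA (-0.28 to 0.30), 0.03 for ADM (-0.15 to 0.21), 0.06 for PFKFB2 (-0.16 to 0.29) and -0.19 for HK2 (-0.41 to 0.03). Over the 36 genes the 95% intervals, which are not adjusted for the number of genes, lay between -0.69 and 0.69.

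**Figure D4:**
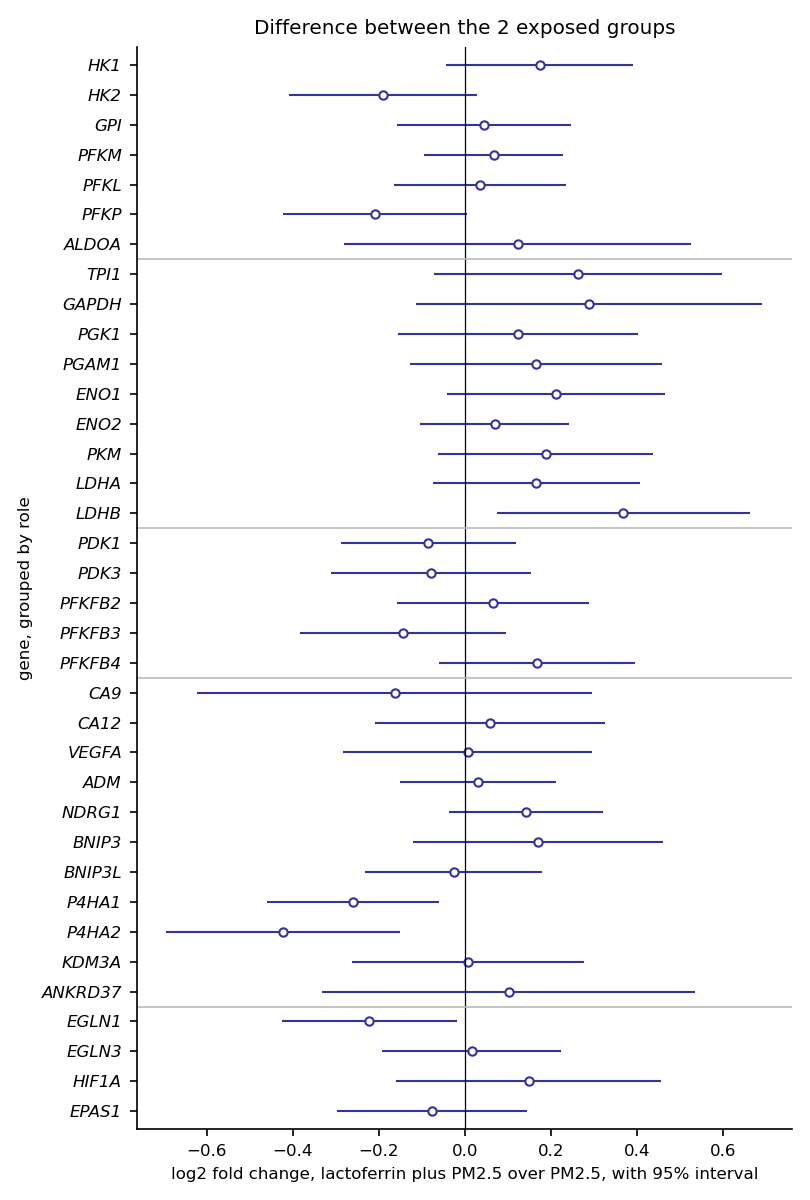
Log2 fold change of lactoferrin plus PM2.5 over PM2.5 with its 95% interval for each tested gene, in rows grouped by role. No gene is called, and the intervals of P4HA2, P4HA1, EGLN1 and LDHB do not include 0.

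Because FPKM are per length, related genes can be set as shares of their summed FPKM. The length is that of all annotated exons of a gene, for example 8502 bases for P4HA2 and 3093 for P4HA1. It need not be that of the transcripts present, so the size of a share depends on the annotation. The shares are therefore read between groups, not as true proportions of the related transcripts. HK2 made up 24.9%, 28.8% and 30.9% of HK1 plus HK2 with lactoferrin plus PM2.5, 34.5%, 33.6% and 32.7% with PM2.5, and 22.1%, 23.2% and 20.8% in control. The 3 groups were separate, with PM2.5 highest. P4HA2 made up 14.3%, 16.2% and 15.7% of the P4HA sum with lactoferrin plus PM2.5, 17.4%, 17.0% and 16.7% with PM2.5, and 8.43%, 9.0% and 9.62% in control. LDHB made up on average 6.76% of LDHA plus LDHB with lactoferrin plus PM2.5, 5.89% with PM2.5 and 4.49% in control. PFKP made up on average 64.2% of the 3 phosphofructokinases with lactoferrin plus PM2.5, 68.4% with PM2.5 and 72.7% in control. ENO2 made up 5.15% of the enolases with lactoferrin plus PM2.5, 5.64% with PM2.5 and 4.36% in control. Exposed and control libraries did not overlap in any of these 5 shares. For BNIP3L the PM2.5 libraries overlapped control and those of lactoferrin plus PM2.5 lay below it. It averaged 33.7% of BNIP3 plus BNIP3L with lactoferrin plus PM2.5, 36.9% with PM2.5 and 37.8% in control. EPAS1 overlapped across groups, at an average of 29.3% of HIF1A plus EPAS1 with lactoferrin plus PM2.5, 32.6% with PM2.5 and 30.2% in control. PDK3 averaged 61.0% of PDK1 plus PDK3 with lactoferrin plus PM2.5, 60.8% with PM2.5 and 57.8% in control. ALDOC, the brain form, averaged 5.66% of the aldolases with lactoferrin plus PM2.5, 4.47% with PM2.5 and 4.28% in control, but this share rests on 3 to 9 ALDOC reads a library and on the uncertain level of ALDOA. With 3 libraries a group, the exact two-sided permutation test cannot go below p = 0.1, and after adjustment over 27 comparisons no share went below 0.169, so these shares are descriptions.

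**Figure D5:**
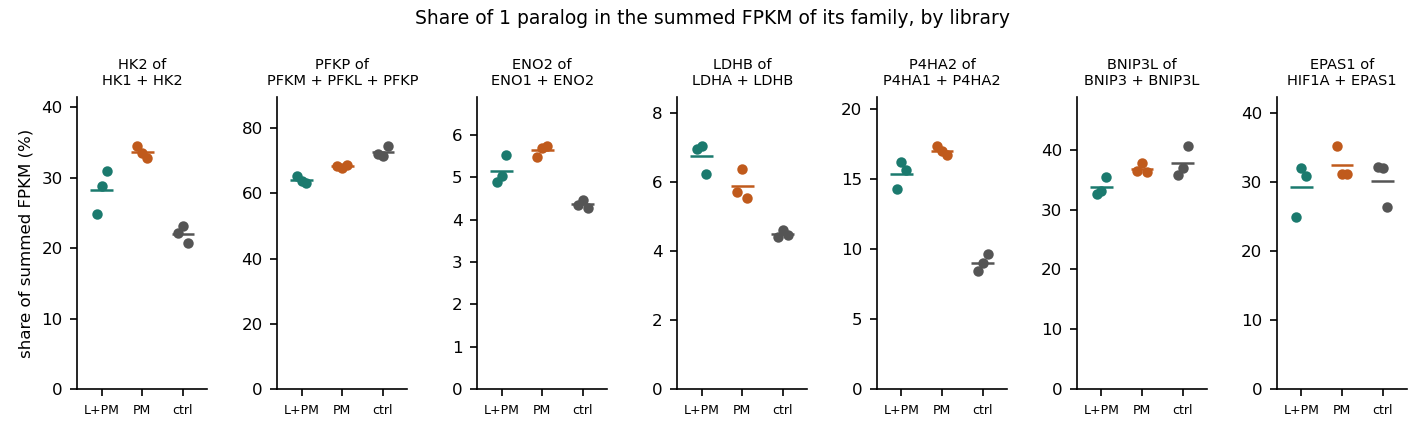
Share of 1 gene in the summed FPKM of its family (percent) in each library, with a line at the group mean (L+PM, lactoferrin plus PM2.5; PM, PM2.5; ctrl, control). The shares of HK2, ENO2, LDHB and P4HA2 lie above control in all 6 exposed libraries, and that of PFKP below.

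Other genes of the same pathways also went both ways against control. Of 30 tested among 35 other HIF-inducible genes, 3 were higher and 10 lower with PM2.5 (median log2 fold change 0.09), which is 10.0% and 33.3%, beside 18.5% and 16.5% of all tested genes. With lactoferrin plus PM2.5, 6 were higher and 11 lower, which is 20.0% and 36.7%, beside 19.6% and 18.5%. The rises with PM2.5 were RRAGD (1.63 ± 0.07), the lysosomal GTPase that signals amino acid supply, STC2 (1.49 ± 0.13), a secreted stanniocalcin, and JMJD6 (0.37 ± 0.11), a jumonji-domain hydroxylase. The largest falls were PPP1R3C (-1.01 ± 0.10), a glycogen-targeting phosphatase subunit, and the collagen-modifying enzymes PLOD2 (-0.87 ± 0.13) and LOX (-0.63 ± 0.10). The JMJD6 call ended without control replicate 1 or 2 or any PM2.5 library (adjusted p 0.0716 to 0.112). Of 11 tested among 13 other genes of the HIF pathway, CITED2, a feedback inhibitor of HIF, was lower in both comparisons. No other was called. That is 9.09% lower and 0% higher in each comparison. Of all tested genes, 16.5% and 18.5% were so with PM2.5, and 18.5% and 19.6% with lactoferrin plus PM2.5. CITED2 changed by -0.55 ± 0.09 with PM2.5 (adjusted p = 0.00194) and -0.57 ± 0.09 with lactoferrin plus PM2.5 (adjusted p = 0.00129).

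Of 18 tested among 30 other glycolytic and pyruvate enzymes, 4 were higher and 2 lower with PM2.5, and the shares of 22.2% and 11.1% were near the 18.5% and 16.5% of all tested genes. With lactoferrin plus PM2.5, 6 were higher and 1 lower, which is 33.3% and 5.56%, beside 19.6% and 18.5%. PDK4 (1.43 ± 0.08), the pyruvate dehydrogenase kinase induced by fasting, PDP2 (0.95 ± 0.10), the opposing phosphatase, and TIGAR (0.53 ± 0.10), a phosphatase that slows glycolysis, were the largest rises with PM2.5. MPC1 (-0.70 ± 0.17), a subunit of the mitochondrial pyruvate carrier, and HKDC1 (-0.32 ± 0.09), a hexokinase-like protein, were the falls. The MPC1 call ended without PM2.5 replicate 1 (adjusted p = 0.0539) and the HKDC1 call without PM2.5 replicate 2 or 3 (adjusted p = 0.063 and 0.0764). PDK4 was also the one gene of these lists called between the exposed groups: it had 24.4, 27.1 and 29.2 FPKM with lactoferrin plus PM2.5, 16.6, 16.7 and 15.6 FPKM with PM2.5, and 5.49, 5.63 and 5.48 FPKM in control. It was higher by 0.70 ± 0.08 with lactoferrin plus PM2.5 than with PM2.5 (adjusted p = 0.0208), and the groups did not overlap. That call ended without control replicate 1 or 2, any PM2.5 library, or lactoferrin plus PM2.5 replicate 2 or 3, where the fold change was 0.65 to 0.74 and the adjusted p 0.0512 to 0.168. It also ended when only the libraries compared were fitted, without control (0.71, adjusted p = 0.0776).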

How the data were processed

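RNA was measured in 9 libraries of HK-2 cells, 3 per group, with groups and replicate numbers taken from the labels. The authors deposited FPKM values, 1 file per library, and the unit was inferred from the values. Per the submitters' processing notes, which give no order or settings, the tools listed were featureCounts 1.6.0, HISAT2 2.1.0, DESeq2 1.22.1, Trimmomatic 0.38, MultiQC, CASAVA and FastQC, and the build GRCh38. The annotation release, strand setting and handling of overlapping genes are not stated by any source used here. With GENCODE v29 exon lengths (58611 identifiers matched), 86.0% to 87.2% of low FPKM per library (at most 200 reads) were whole multiples of 1 step within 0.05, which gave the depths. FPKM depth was thus rebuilt rather than counted, and count tests were not the main test.

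Each library was scaled by a trimmed-mean-of-M factor, and log2(FPKM + 0.5) over all 9 libraries was modelled by group with limma 3.58.1 under R 4.3.3, using eBayes with trend and robust options. Genes needed 0.5 FPKM in at least 3 libraries, and p-values were adjusted over all 14454. Adding 0.5 understates changes of low genes. The fit was tested on simulated data. The members and lists were chosen with earlier results of these data known. All 37 members are named, as are the 3 called genes of each other list with the largest change in each direction for PM2.5, and any called between the exposed groups. Alternatives covered pseudocount, filter, scaling, the libraries fitted, a replicate block, the variance model and leaving out each library. Another 3 (both outlying libraries left out, limma-voom on rebuilt reads, a length trend removed) were chosen after seeing the data. Figures were drawn with matplotlib 3.10.9.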

Additional observations from a re-analysis of the deposited data

How the results depend on the processing

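No alternative reversed the sign of a called value or gave a call for any of the 36 genes between the exposed groups. Of the 19 genes called for PM2.5 against control, 14 were called under every alternative run, and of the 22 for lactoferrin plus PM2.5 against control, 15 were. The number of genes lower with lactoferrin plus PM2.5 than in control, 12, was 6 with no filter on low values and 6 when only the libraries compared were fitted. Leaving out single libraries gave 7 to 11, with 7 without control replicate 2 or lactoferrin plus PM2.5 replicate 2 or 3. For PM2.5 against control, 10 lower genes became 6 to 11, with 6 without control replicate 2 or PM2.5 replicate 3. Over all genes, the 7 calls between the exposed groups became 4 with only the libraries compared, 15 without the trend and robust options, 11 without both outlying libraries, 17 with the length trend removed and 14 with limma-voom on rebuilt reads. Leaving out single libraries gave 0 to 10, with 0 without PM2.5 replicate 1 or 2 or lactoferrin plus PM2.5 replicate 2, 3 without PM2.5 replicate 3 and 4 without control replicate 1 or 2. The cause was not tested. Low genes such as CA9 and ANKRD37 are limited by a few reads a library.

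Same-numbered libraries had deviations correlated at -0.07 to 0.18, and differently numbered ones at -0.18 to 0.14. The replicate numbers were not taken to pair samples, but these overlapping ranges do not settle whether they do. With the number as a replicate block, 13 genes were called between the exposed groups. Among the 36 genes, that block gave 10 higher and 12 lower for PM2.5 against control and 10 higher and 11 lower for lactoferrin plus PM2.5 against control. It gave calls for GPI, TPI1 and PGK1 with PM2.5 (adjusted p = 0.04, 0.0234 and 0.0252) and ended that of PDK1 with lactoferrin plus PM2.5 (adjusted p = 0.0547).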
